A study of Mus musculus with 9 samples.

Results

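The genes described here encode the oxidative phosphorylation system: the subunits of respiratory complexes I to IV and of ATP synthase (complex V), from the nucleus and from mitochondrial DNA, measured by RNA sequencing in mouse CD4+ T cells. Members were taken by symbol from the protein-coding genes of GENCODE M21 (Ndufa, Ndufb, Ndufc, Ndufs, Ndufv, Sdh, Uqcr, Cox4 to Cox8, Atp5, mt-Nd, mt-Co, mt-Cytb and mt-Atp). The rule reads symbols and no measured values, but it was chosen with earlier results of these data known. The rule found 111 of 45321 genes, of which 98 are nuclear and 13 are encoded by mitochondrial DNA. It also takes in assembly factors whose symbols begin with Ndufaf or Sdhaf, which build complexes I and II and are not part of them.

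Total CD4+ T cells came from spleens of C57BL/6 mice and were purified untouched, by removal of other cells. In the stimulated compound 10 group (3 libraries), cells were held for 1 h with 12.5 µM Compound 10 and then given 10 nM PMA with 1 µM ionomycin for 2 h. The stimulated DMSO group (2 libraries) had the solvent DMSO in place of the compound. The unstimulated compound 10 group (2 libraries) and the unstimulated DMSO group (2 libraries) had the same pretreatment and no PMA or ionomycin. Compound 10 is described by the series title as a small-molecule inhibitor aimed at the NFAT:AP-1 transcription factor complex on DNA, and PMA with ionomycin activates that pathway without the T cell receptor. Because compound 10 was given at 1 dose and 1 time, no dose relation can be read.

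Libraries held 10669821 to 21852830 estimated counts. Replicates are numbered in the titles, but nothing says that they came from separate mice or cultures, so p-values measure the spread between these libraries, which may be technical. The 6 T cell markers summed to 1890 to 1951 and 1369 to 1766 CPM (counts scaled to the size of each library, with TMM factors) in stimulated compound 10 and DMSO libraries, and to 1070 to 1227 and 696 to 813 CPM in unstimulated ones. CD8 T, B, myeloid, neutrophil, and erythroid or platelet markers each summed to at most 58.2 CPM. With DMSO, stimulated and unstimulated libraries overlapped in these sums except for CD8 T markers, at 6.74 to 7.31 CPM in stimulated and 4.90 to 6.52 CPM in unstimulated libraries. Myeloid sums were lower with compound 10, at 40.6 to 44.5 against 44.9 to 53.3 CPM in stimulated cells. In unstimulated cells they were 36.6 to 37.6 against 44.7 to 46.7 CPM. CD8 T sums were lower in stimulated cells (4.43 to 6.63 against 6.74 to 7.31 CPM). B sums were lower in unstimulated cells (25.4 to 27.4 against 36.8 to 58.2 CPM). The other sums of these types overlapped between compound 10 and DMSO. Single markers of other cell types were called with stimulation: in DMSO Itgam (log2 6.38), Cd79b (-2.24) and S100a8 (-7.25), and under compound 10 Itgam (7.14), Klrd1 (1.07) and Prf1 (1.68). Of T cell markers, Lck (0.83), Cd3g (0.8) and Trac (2.3) were called in DMSO, and Lck (0.7) and Trac (1.43) under compound 10. Compound 10 in stimulated cells had the NK markers Klrb1c (3.72), Gzma (1.51), Prf1 (1.4) and Klrd1 (1.2) called. The T cell markers Lck (0.86), Cd4 (0.79), Cd3g (0.77) and Cd3e (0.67) were called too. In unstimulated cells compound 10 had Gzma (1.93), Cd3g (1.09), Lck (0.99) and Trac (0.76) called. The 5 NK cell markers summed to 17.7 to 23.8 CPM in stimulated compound 10 libraries, against 5.90 to 7.91 CPM in stimulated DMSO libraries, and to 10.2 to 12.2 CPM in unstimulated compound 10 libraries, against 4.26 to 5.91 CPM in unstimulated DMSO libraries. Nuclear ribosomal RNA took 1.79% to 9.72% of counts in compound 10 libraries, against 3.59% and 13.9% in stimulated DMSO libraries and 4.74% and 26.5% in unstimulated DMSO libraries. The part of these markers and of ribosomal RNA in the results below was not tested, except that counts are also given without the DMSO library of each state that was richer in ribosomal RNA.

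Complex I (NADH dehydrogenase) and complex II (succinate dehydrogenase) pass electrons to coenzyme Q, complex III passes them on to cytochrome c, and complex IV (cytochrome c oxidase) gives them to oxygen. Complexes I, III and IV pump protons across the inner mitochondrial membrane, and ATP synthase uses the returning flow to make ATP. Mitochondrial DNA encodes core subunits of complexes I, III, IV and V, complex II is wholly nuclear, and resting T cells are known to rely on this system before activation brings up glycolysis.

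Of the 111 members, 103 had enough counts to be tested: 90 nuclear and all 13 mitochondrial. Those not tested are mostly tissue-restricted or testis forms of complex IV subunits. Cox7b2, Cox8b, Cox8c and a second gene entry for Atp5o had 0 counts in all libraries together, while Ndufa4l2 had 1, Cox4i2 had 4, Cox6a2 had 6 and Cox6b2 had 57. These CD4+ T cells thus held the general forms of these subunits: Cox4i1 averaged 1164 TPM (a level per transcript length and per library) over the 9 libraries, Cox6a1 407 TPM, Ndufa4 340 TPM, Cox8a 269 TPM, Cox6b1 259 TPM and Cox7b 75.2 TPM. Cox7a1, the form known from heart and skeletal muscle, averaged 3.92 TPM beside 108 TPM for Cox7a2 and 569 TPM for Cox7a2l. Cox7a2l is known as a supercomplex factor of complexes III and IV, a role that was not measured in these cells.

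Most mitochondrial members stood above the nuclear ones in level per length, and nuclear Cox4i1 stood above mt-Nd2, mt-Nd6 and mt-Nd5. Mitochondrial members had mean levels of 904 to 25423 TPM, and the order was mt-Co3 (25423 TPM), mt-Atp6 (18172), mt-Co1 (14130), mt-Cytb (11402), mt-Co2 (9826), mt-Atp8 (7554) and mt-Nd1 (6449), followed by mt-Nd4 (2299), mt-Nd4l (1546), mt-Nd3 (1330), mt-Nd2 (949), mt-Nd6 (949) and mt-Nd5 (904). All 7 complex I genes of mitochondrial DNA therefore stood below all others of that genome. Neighbours in this order overlapped over the 9 libraries, for example mt-Co3 at 18932 to 36157 TPM and mt-Atp6 at 14901 to 22475 TPM, whereas mt-Nd1 (4098 to 10178 TPM) and mt-Nd4 (1864 to 3101 TPM) did not. Counts cannot separate mt-Atp8 from mt-Atp6 or mt-Nd4l from mt-Nd4 where these genes overlap, nor, as strand use is not stated, mt-Nd6 from RNA of the opposite strand.

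Among tested nuclear members, the median of the mean levels was 259 TPM for complex IV (13 genes), 171 TPM for complex V (17), 116 TPM for complex III (8), 54.0 TPM for complex II (4), 42.6 TPM for complex I (36) and 4.80 TPM for assembly factors (12). Cox4i1 stood highest, followed by Atp5b, the catalytic beta subunit of ATP synthase, at 808 TPM and by Uqcrh, the hinge protein of complex III, at 599 TPM. The lowest complex I subunit was Ndufs1, its large iron-sulfur core subunit, at 9.19 TPM, where the highest, the accessory subunit Ndufa6, reached 243 TPM. Atp5s, a coupling factor, was lowest of all at 0.433 TPM.

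Promoters are shown for the lower and the higher nuclear members with the smallest p in stimulated cells given compound 10, among those with a RefSeq window: Ndufa11 and Atp5g3 (lower) and Ndufa6 and Atp5c1 (higher). Ndufs1, whose p was below that of Atp5g3, had no window in the table. Each is the RefSeq window of GRCm38.p6 from 250 bases before to 50 bases after the gene's start, 5′ to 3′ on the gene's strand. They lie at chr17:56717512-56717811 (plus strand), chr2:73911277-73911576 (minus), chr15:82354242-82354541 (minus) and chr2:10080383-10080682 (minus), the last being the window of 2 with more matches. Capitals mark matches on either strand to an NRF1-type motif (GCGCANGC), an ETS-type motif (CCGGAAG), a YY1-type motif (AAGATGGC) or an E-box (CACGTG), overlapping matches merged.

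Ndufa11: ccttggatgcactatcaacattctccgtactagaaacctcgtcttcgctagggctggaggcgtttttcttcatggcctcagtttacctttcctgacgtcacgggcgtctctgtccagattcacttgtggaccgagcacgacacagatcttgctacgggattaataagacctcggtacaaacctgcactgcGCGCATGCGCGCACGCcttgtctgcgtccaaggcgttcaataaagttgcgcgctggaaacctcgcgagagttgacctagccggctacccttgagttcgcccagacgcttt
Atp5g3: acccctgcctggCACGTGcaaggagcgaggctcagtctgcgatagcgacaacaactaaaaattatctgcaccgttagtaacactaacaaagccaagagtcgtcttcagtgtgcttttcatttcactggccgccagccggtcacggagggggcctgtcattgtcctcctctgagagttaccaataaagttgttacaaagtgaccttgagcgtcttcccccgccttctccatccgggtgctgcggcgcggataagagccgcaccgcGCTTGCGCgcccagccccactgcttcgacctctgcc
Ndufa6: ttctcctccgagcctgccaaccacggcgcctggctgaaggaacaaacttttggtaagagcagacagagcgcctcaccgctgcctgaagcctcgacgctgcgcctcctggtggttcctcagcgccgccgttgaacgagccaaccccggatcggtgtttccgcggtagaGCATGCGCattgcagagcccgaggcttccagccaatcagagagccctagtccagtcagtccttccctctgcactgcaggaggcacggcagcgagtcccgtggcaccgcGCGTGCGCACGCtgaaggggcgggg
Atp5c1: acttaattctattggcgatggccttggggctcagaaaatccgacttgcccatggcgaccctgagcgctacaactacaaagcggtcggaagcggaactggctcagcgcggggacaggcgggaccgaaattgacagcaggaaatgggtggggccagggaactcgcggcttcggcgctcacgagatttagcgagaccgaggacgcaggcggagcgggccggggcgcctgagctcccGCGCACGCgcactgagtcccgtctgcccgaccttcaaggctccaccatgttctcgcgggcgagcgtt

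Each of the 4 windows held an NRF1-type match, lower and higher members alike, and that of Atp5g3 also held an E-box. RefSeq windows were matched to 79 of the 98 nuclear members. They include the second gene entry for Atp5o, and each Atp5o entry held an NRF1-type match. An NRF1-type match lay in 35.4% of these members, against 11.2% of 27025 genes with a window. Those genes were counted whether or not they were expressed here, and a comparison with tested genes alone was not made. The ETS-type motif lay in 26.6% of members against 9.93% of genes, the YY1-type motif in 12.7% against 3.19%, and the E-box in 6.33% against 8.09%. Among members with a window, NRF1-type matches occurred in 9 of 19 that were lower and 4 of 5 that were higher with compound 10 in stimulated cells. A match is a run of letters and not a measured site.

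Summed over members, the balance between the genomes overlapped between compound 10 and DMSO. Nuclear members took 0.739% to 1.08% of all counts and mitochondrial members 6.12% to 10.5%. The log2 ratio of nuclear to mitochondrial counts was -3.03, -3.33 and -3.44 in stimulated compound 10 libraries, against -3.14 and -3.01 in stimulated DMSO libraries. In unstimulated cells it was -3.18 and -3.28 with compound 10, against -3.28 and -3.12 with DMSO. The groups overlapped in both states, and stimulated compound 10 libraries spread most (SD 0.216, n = 3).

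Within the mitochondrial counts, the share of complex I genes was lower with compound 10. The 7 mt-Nd genes made up 13.6%, 13.98% and 14.2% of mitochondrial member counts in stimulated compound 10 libraries, against 16.3% and 22.0% in stimulated DMSO libraries. In unstimulated libraries the share was 11.9% and 12.1% with compound 10, against 15.6% and 20.01% with DMSO. The groups did not overlap in either state, and the higher DMSO value was each time in the library richer in ribosomal RNA. The difference of group means was -5.25 percentage points in stimulated and -5.85 in unstimulated cells with all libraries, and -2.41 and -3.65 without the DMSO library richer in ribosomal RNA. This share, which depends on no scaling between libraries, was chosen after the values were seen and has no test.

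mt-Nd1, a core membrane subunit of complex I, carried most of that difference. It made up 5.64%, 5.87% and 5.90% of mitochondrial member counts in stimulated compound 10 libraries, against 8.44% and 10.8% in stimulated DMSO libraries, and 5.02% and 5.07% in unstimulated compound 10 libraries, against 7.89% and 9.12% in unstimulated DMSO libraries. Its level was 4079, 5060 and 5722 CPM in stimulated compound 10 libraries and 7787 and 7682 CPM in stimulated DMSO libraries, a log2 fold change of -0.64 ± 0.22 (SE) with an adjusted p of 0.0495 by edgeR's quasi-likelihood test, and this call ended when any 1 library was left out. In unstimulated cells it was 3739 and 3687 CPM with compound 10, against 6310 and 6297 CPM with DMSO (log2 -0.76 ± 0.24, edgeR adjusted p 0.0764). The libraries of each pair of groups did not overlap, as for 47.3% of all genes tested in stimulated and 55.5% in unstimulated cells. None of the other 12 mitochondrial members passed the test in any comparison. Among them, mt-Nd3 had a log2 fold change of -0.88 ± 0.33 in stimulated and -1.15 ± 0.37 in unstimulated cells, and mt-Co1, mt-Co2, mt-Co3, mt-Cytb, mt-Atp6 and mt-Atp8 lay between -0.06 and 0.30 in both states. With DESeq2, mt-Nd1 and mt-Nd3 were called lower in both states and mt-Nd4l in unstimulated cells. The edgeR fit without a filter on low counts called mt-Nd3 lower in both states and did not call mt-Nd1. Its edgeR adjusted p for mt-Nd3 was 0.000725 in stimulated and 0.000353 in unstimulated cells.

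**Figure D1:**
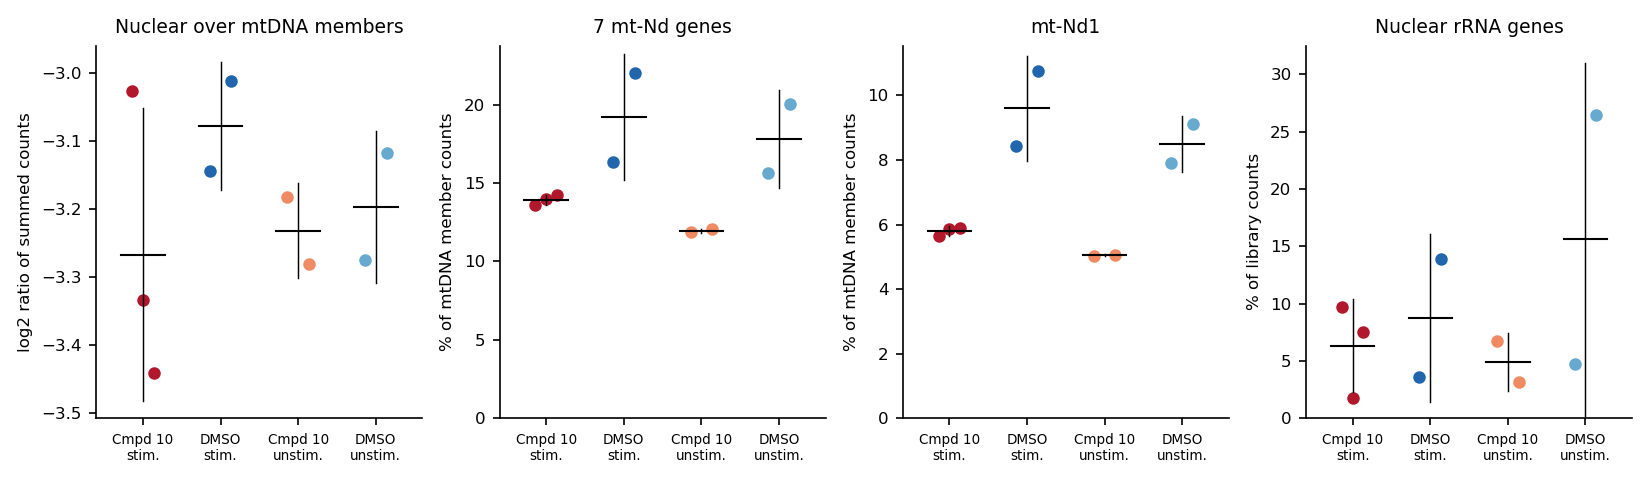
Values of each library by group (Cmpd 10, compound 10; stim., PMA and ionomycin), with the mean (bar) and SD (line): the log2 ratio of nuclear to mitochondrial member counts, the mt-Nd genes and mt-Nd1 as percent of mitochondrial member counts, and nuclear ribosomal RNA as percent of library counts. The ratio overlaps between compound 10 and DMSO, the mt-Nd shares do not (13.6% to 14.2% against 16.3% and 22.0% in stimulated cells), and ribosomal RNA is highest in 1 DMSO library of each state.

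Compound 10 in stimulated cells was accompanied by lower levels of 21 of 90 nuclear members and higher levels of 5 (adjusted p under 0.05, edgeR). Lower calls thus made up 23.3% of nuclear members, where 11.4% of all 14011 genes tested were lower, and higher calls 5.56%, where 11.7% of all genes were higher. The median log2 fold change was -0.17 over nuclear members, 0.10 over mitochondrial members and 0.00 over all genes tested. In bulk RNA, fewer cells of a type and less RNA per cell cannot be told apart. Complex I had 10 lower and 2 higher of 36 subunits, complex II 2 lower of 4, complex III 2 lower of 8, complex IV 3 lower of 13, complex V 3 lower and 2 higher of 17, and the assembly factors 1 lower and 1 higher of 12. Of the 27 calls, mt-Nd1 included, 10 held whichever library was left out (9 lower, 1 higher), which is 9.71% of members tested, where 9.34% of all genes tested were called and held. The groups did not overlap in 48.5% of members tested and in 47.3% of all genes. Without the DMSO library of each state richer in ribosomal RNA, the DMSO groups had no replicates, and the median over all genes was 0.06. Calls in that fit were not compared with those of all genes and are counted with the alternatives at the end.

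**Figure D2:**
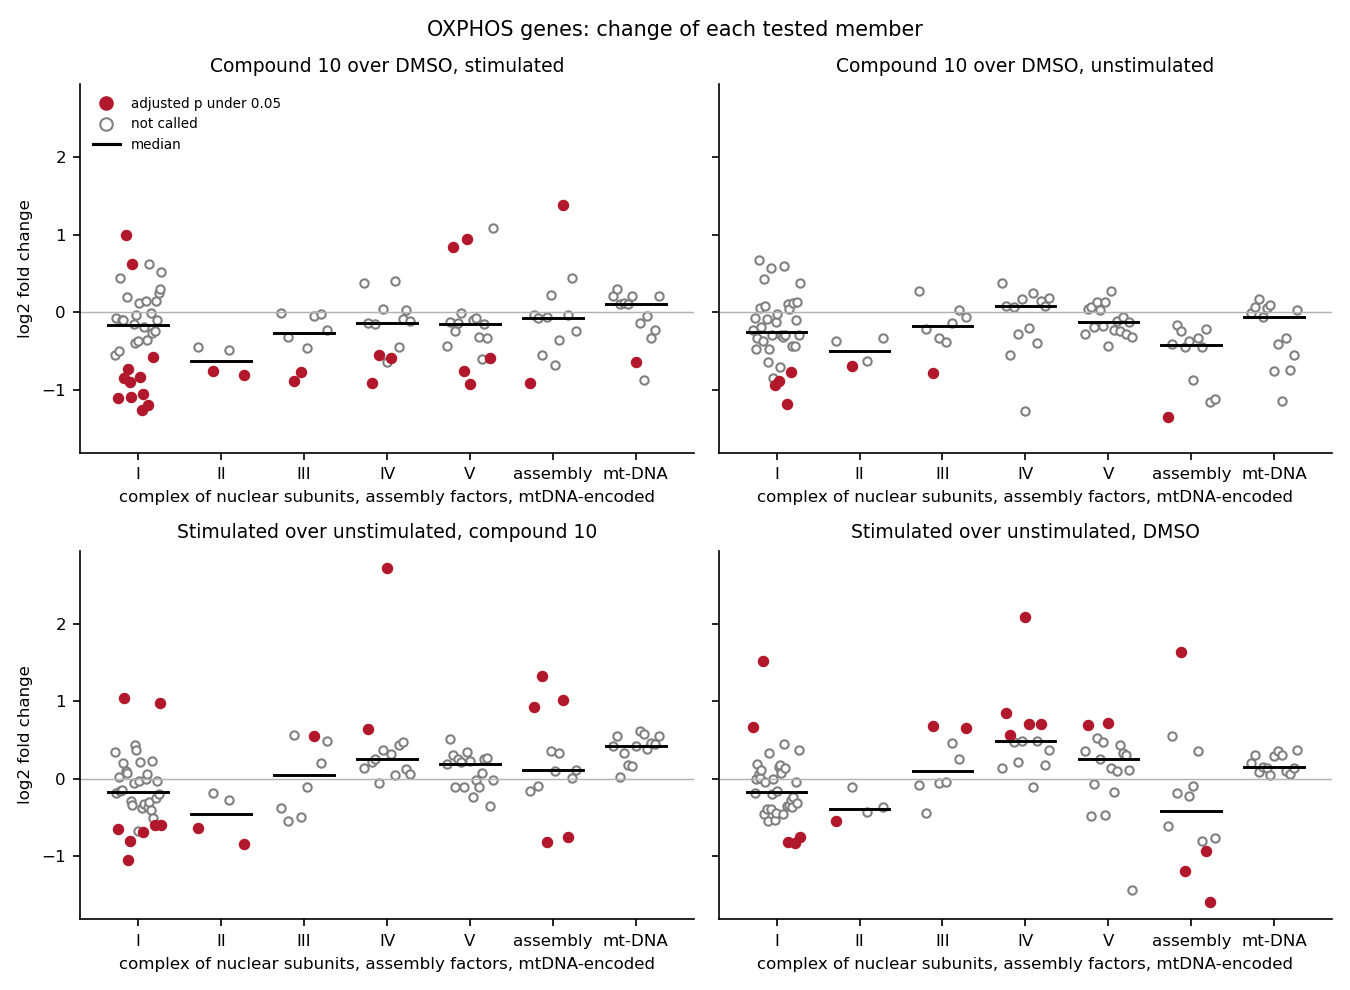
Log2 fold change of each of the 103 tested members in 4 comparisons, by complex for nuclear subunits, then assembly factors and the genes of mitochondrial DNA (mt-DNA). Filled points have an edgeR adjusted p under 0.05 and bars are medians; with compound 10 in stimulated cells 21 nuclear members lie lower and 5 higher, and with stimulation in DMSO the 5 called complex IV members are all higher.

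In complex I the lower members included parts of the matrix arm and of the membrane arm. Ndufs1 (chr1:63143596-63176833, minus strand, GRCm38), the core subunit that receives electrons from the flavoprotein part, had 9.94, 9.64 and 13.3 CPM in stimulated compound 10 libraries, against 24.1 and 26.3 CPM in stimulated DMSO libraries. Each compound 10 library was below each DMSO library, with a log2 fold change of -1.20 ± 0.20 (edgeR adjusted p 0.00123, at most 0.0129 with any library left out). Ndufa11 (chr17:56717767-56722141, plus), an accessory membrane-arm subunit, had 27.6, 34.0 and 27.3 CPM, against 67.1 and 61.2 CPM with DMSO (log2 -1.11 ± 0.16, edgeR adjusted p 0.000534). Ndufb7 (chr8:83566671-83571626, plus), an accessory subunit of the membrane arm on the intermembrane-space side, had 10.98, 17.3 and 9.60 CPM, against 33.4 and 27.5 CPM with DMSO (log2 -1.27 ± 0.23, edgeR adjusted p 0.00231). These 3 genes showed no overlap between groups, and their changes were larger than the spread between replicates.

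Ndufab1, the mitochondrial acyl carrier protein that complex I holds as a subunit, had 19.5, 26.9 and 15.9 CPM with compound 10, against 46.0 and 42.6 CPM with DMSO in stimulated cells (log2 -1.09 ± 0.22). Ndufa9, an accessory subunit near the coenzyme Q site, had 15.9, 18.3 and 15.4 CPM, against 33.0 and 29.1 CPM (log2 -0.91 ± 0.17). Ndufb6, of the membrane arm, had 24.8, 30.7 and 26.1 CPM, against 50.7 and 46.5 CPM (log2 -0.83 ± 0.16). All 3 held in edgeR with any library left out. Ndufb8, of the membrane arm too, changed by -1.05 ± 0.23, with an edgeR adjusted p of 0.00543 that became 0.0705 without stimulated DMSO replicate 1. Pseudogene copies with matching sequence exceeded 10% of a member's counts for Ndufb4, Atp5g2 and Ndufab1, and the call of Ndufab1 held when they were added to it.

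Ndufa6, an accessory subunit of the matrix arm, moved the other way. It had 130, 126 and 130 CPM in stimulated compound 10 libraries, against 70.8 and 58.6 CPM in stimulated DMSO libraries. The compound 10 libraries were close together and all above the DMSO ones (log2 0.99 ± 0.16, edgeR adjusted p 0.00106, at most 0.0177 with any library left out). Ndufb10, a membrane-arm subunit, was higher by 0.62 ± 0.18, a call that ended without stimulated DMSO replicate 2 or stimulated compound 10 replicate 1 or 2. Complex I members of the same arm thus stood on both sides of DMSO.

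**Figure D3:**
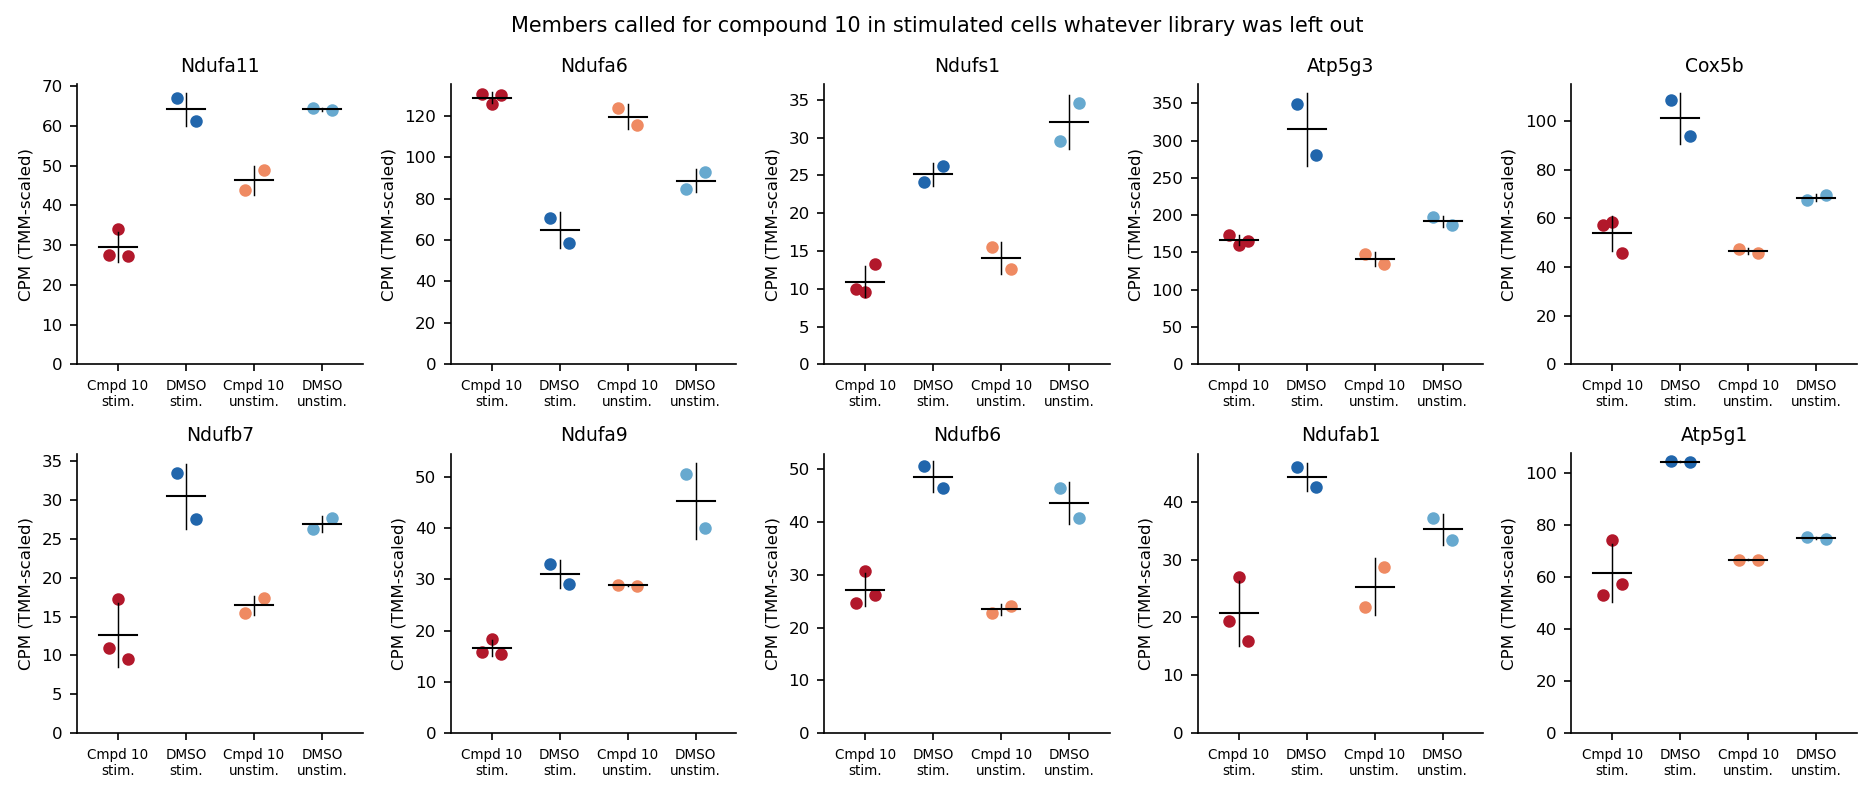
TMM-scaled CPM of each library for the 10 members called for compound 10 in stimulated cells with any library left out, by group, with mean (bar) and SD (line). In stimulated cells 9 of them lie lower with compound 10 than with DMSO and Ndufa6 lies higher (126 to 130 against 58.6 and 70.8 CPM).

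Complex II has 4 subunits, all nuclear. It had 2 called lower (50%) with compound 10 in stimulated cells and 1 (25%) in unstimulated cells (all genes, 11.4% and 2.91%). Its subunits made up 1.70%, 1.89% and 1.74% of nuclear member counts in stimulated compound 10 libraries, against 2.57% and 2.496% in stimulated DMSO libraries. In unstimulated libraries the share was 2.74% and 3.11% with compound 10, against 4.13% and 3.597% with DMSO. No groups overlapped in this share, which has no test. Sdhb, the iron-sulfur subunit, had 41.3, 53.1 and 44.3 CPM in stimulated compound 10 libraries, against 83.3 and 73.6 CPM with DMSO (log2 -0.76 ± 0.17, edgeR adjusted p 0.00634, but 0.0542 without stimulated DMSO replicate 1). Sdhd, a membrane anchor named after its value was seen, had 41.6, 39.5 and 42.6 CPM, against 85.1 and 60.0 CPM (log2 -0.82 ± 0.19, edgeR adjusted p 0.00771, but 0.110 without the same library). Sdha, the flavoprotein, and Sdhc, the other anchor, had log2 changes of -0.45 ± 0.16 and -0.49 ± 0.21 and did not pass. Sdhaf1, a factor that inserts iron-sulfur clusters into Sdhb, was higher: 16.5, 23.5 and 13.5 CPM with compound 10, against 8.83 and 4.86 CPM with DMSO (log2 1.38 ± 0.31, edgeR adjusted p 0.00769, but 0.0828 without stimulated DMSO replicate 2).

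In complex III, Uqcrb, a small ubiquinone-binding subunit, had 35.8, 38.1 and 46.1 CPM in stimulated compound 10 libraries, against 62.9 and 84.7 CPM with DMSO (log2 -0.88 ± 0.19, edgeR adjusted p 0.00587, but 0.0781 without stimulated DMSO replicate 2). In complex IV, Cox5b, a zinc-binding nuclear subunit on the matrix side, had 57.1, 58.6 and 45.6 CPM with compound 10, against 109 and 93.8 CPM with DMSO (log2 -0.91 ± 0.16, edgeR adjusted p 0.0019). Cox5b held with any library left out. Uqcrc1, a core subunit of complex III named after its value was seen, had a log2 change of -0.77 ± 0.24, a call that ended when any of 5 libraries was left out. Cox7a2 and Cox6b1 were lower by smaller amounts (log2 -0.60 ± 0.15 and -0.56 ± 0.15), and either call ended without stimulated DMSO replicate 1 or 2, that of Cox6b1 also without stimulated compound 10 replicate 1 or 3. Cox4i1 and Cox7a2l, the most abundant nuclear complex IV transcripts, had log2 changes of 0.37 ± 0.22 and 0.40 ± 0.20 and did not pass. These 2 genes together made up 15.98%, 17.2% and 17.3% of nuclear member counts in stimulated compound 10 libraries, against 11.97% and 11.5% in stimulated DMSO libraries. The other 11 tested genes of complex IV made up 11.5%, 13.6% and 11.3%, against 12.6% and 13.4%. The share was higher with compound 10 for the pair and overlapped for the rest, and it has no test.

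In ATP synthase the genes for the c subunit, the rotating ring of the membrane part, moved in opposite directions. Atp5g1, Atp5g2 and Atp5g3 encode the same mature protein with different import sequences. Atp5g3 had 173, 160 and 166 CPM in stimulated compound 10 libraries, against 349 and 281 CPM with DMSO (log2 -0.92 ± 0.17, edgeR adjusted p 0.00189, holding with any library left out). Atp5g1 had 53.0, 74.2 and 57.4 CPM, against 105 and 104 CPM (log2 -0.76 ± 0.17, edgeR adjusted p 0.0067), a call that held with any 1 library left out and ended without the DMSO library of each state richer in ribosomal RNA. Atp5g2 had 132, 63.7 and 117 CPM, against 57.2 and 51.0 CPM (log2 0.95 ± 0.29, edgeR adjusted p 0.0394). The Atp5g2 call ended when its pseudogene copies were added and when any of 6 libraries was left out.

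As a share of the TPM of the 3 c-subunit genes, Atp5g3 took 47.4%, 51.9% and 47.8% in stimulated compound 10 libraries, against 65.7% and 61.5% in stimulated DMSO libraries. In unstimulated libraries it took 46.5% and 47.2% with compound 10, against 57.1% and 51.2% with DMSO. Atp5g2 took 35.4%, 20.3% and 33.2%, against 10.5% and 10.9% in stimulated cells, and 28.04% and 25.2%, against 16.9% and 24.3% in unstimulated cells. No groups overlapped by compound in either state for these genes, though for Atp5g2 in unstimulated cells 1 DMSO library, at 24.3%, lay close to the compound 10 ones. Atp5g1 took 17.2%, 27.9% and 19.0% with compound 10, against 23.7% and 27.5% with DMSO in stimulated cells, and these groups overlapped. The shares leave out pseudogene copies, which for Atp5g2 held 26.4% as many counts as the gene, and were not computed with copies added. These shares were chosen after values were seen and have no test.

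Atp5c1, the gamma subunit that forms the central stalk, was the other higher member of ATP synthase. It had 214, 178 and 193 CPM in stimulated compound 10 libraries, against 120 and 96.3 CPM with DMSO (log2 0.85 ± 0.18, edgeR adjusted p 0.00555, but 0.0671 without stimulated DMSO replicate 2). Atp5a1 and Atp5b, the alpha and beta subunits, did not pass in this comparison. Transcript makeup differed for Atp5j2, the f subunit: annotated retained-intron transcripts held 25.2%, 24.1% and 29.1% of its counts in stimulated compound 10 libraries, against 12.9% and 14.5% in stimulated DMSO libraries. In unstimulated libraries the share was 25.2% and 24.8%, against 15.2% and 10.5%. For Ndufa9 these transcripts held 14.3%, 12.9% and 10.1%, against 5.06% and 6.31% in stimulated cells. Compound 10 and DMSO did not overlap in either state for Atp5j2, nor in stimulated cells for Ndufa9. Both genes were picked for transcript makeup from all tested members after values were seen, and these shares have no test.

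**Figure D4:**
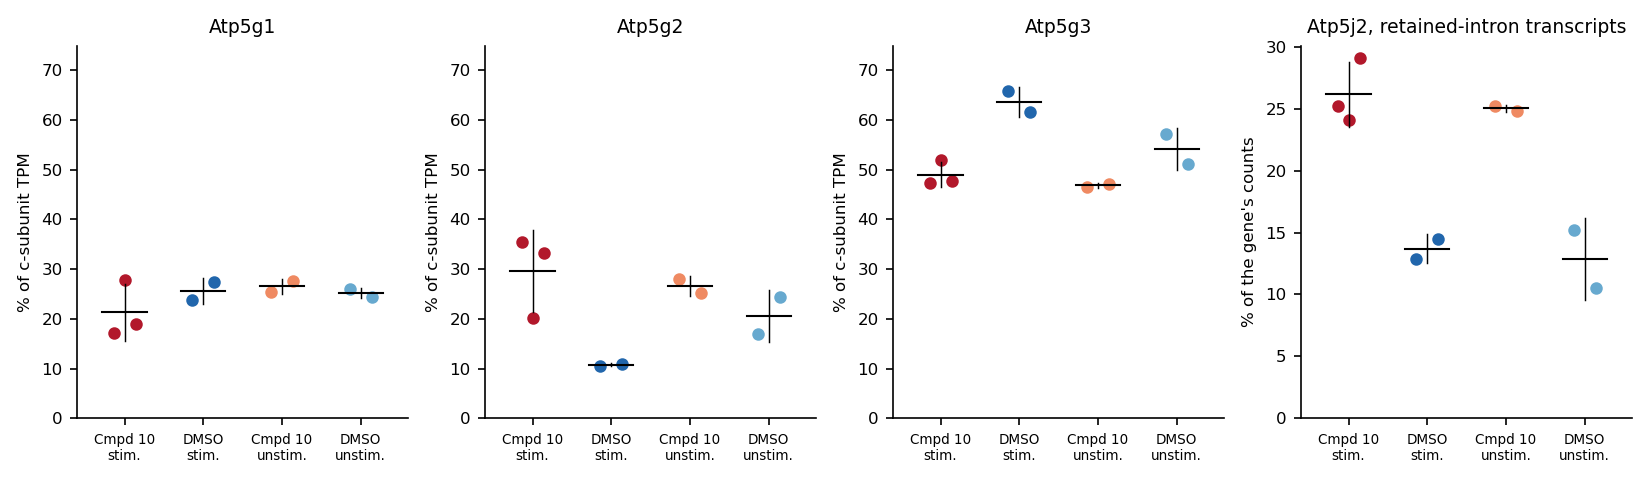
Share of each c-subunit gene in their summed TPM, pseudogene copies left out, and share of retained-intron transcripts in the counts of Atp5j2, for each library by group, with mean (bar) and SD (line). Atp5g3 takes 47.4% to 51.9% in stimulated compound 10 libraries, against 61.5% and 65.7% with DMSO, and the retained-intron share of Atp5j2 is 24.1% to 29.1%, against 12.9% and 14.5%.

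Compound 10 in unstimulated cells had 7 nuclear members lower and 0 higher of 90, or 7.78% lower, where 2.91% of all genes were lower and 4.45% higher. The median log2 fold change was -0.23 over nuclear members, -0.06 over mitochondrial members and -0.01 over all genes. Ndufs1 had 15.6 and 12.6 CPM with compound 10, against 29.5 and 34.6 CPM with DMSO (log2 -1.19 ± 0.22, edgeR adjusted p 0.00943). Ndufb6 had 22.7 and 24.2 CPM, against 46.4 and 40.8 CPM (log2 -0.89 ± 0.18, edgeR adjusted p 0.0141). The assembly factor Ndufaf1 changed by -1.36 ± 0.32, the accessory subunits Ndufb3 and Ndufs4 by -0.94 ± 0.24 and -0.77 ± 0.21, Sdhb by -0.69 ± 0.19 and Uqcrb by -0.78 ± 0.22. None held with every library left out, where 0.978% of all genes tested were called and held. Without the DMSO library of each state richer in ribosomal RNA, the DMSO groups had no replicates. Calls in that fit were not compared with those of all genes. The unstimulated groups did not overlap in 63.1% of members tested and in 55.5% of all genes.

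Side by side, Ndufs1 changed by -1.20 ± 0.20 with compound 10 in stimulated cells and by -1.19 ± 0.22 in unstimulated cells. Ndufa11 changed by -1.11 ± 0.16 and -0.47 ± 0.18, and Ndufa6 by 0.99 ± 0.16 and 0.43 ± 0.17. The test of the difference itself, the interaction of compound and stimulation, called 0 of 103 members in either direction, where 0.421% of all genes were higher and 0.607% lower. At an unadjusted p under 0.05 there were 8 members, or 7.77% of those tested, where 14.6% of all genes had one. DESeq2 and the fit without a filter each called 1 member. That member was Sdhaf1 with an interaction of 1.83 ± 0.46 on the log2 scale (edgeR adjusted p 0.0886, from 0.00125 to 0.571 over the alternatives): it had 16.5, 23.5 and 13.5 CPM in stimulated and 9.03 and 8.63 CPM in unstimulated cells with compound 10, and 8.83 and 4.86 CPM in stimulated and 14.4 and 9.68 CPM in unstimulated cells with DMSO. The comparisons that follow share libraries with those above, so their values are set side by side only.

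Stimulation in DMSO had 12 nuclear members higher and 7 lower of 90, or 13.3% higher, where 14.4% of all genes were higher, and 7.78% lower, where 13.8% of all genes were lower. The nuclear members as a whole therefore changed about as often upwards as all genes did. Complex IV had 5 higher and 0 lower of 13, with a median log2 fold change of 0.48, against -0.05 over all genes. Complex V had 2 higher and complex III 2 higher with none lower, while complex I had 2 higher and 3 lower, complex II 1 lower, and the assembly factors 1 higher and 3 lower. Upper-quartile scaling, which moved the median of all genes to -0.12, left 4 complex IV members called higher and gave 7 higher and 10 lower over all members. With limma on TPM 1 complex IV member was called higher, and without the DMSO library of each state richer in ribosomal RNA 2 were. The complex IV median was 0.16 to 0.55 under every scaling tried and without the DMSO libraries richer in ribosomal RNA, while those of complexes III and V were -0.15 and -0.04 with limma on TPM. Without those libraries 6 members were called in all.

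Ndufaf4, an assembly factor of complex I, rose most clearly. It had 37.9 and 36.4 CPM in stimulated DMSO libraries, against 13.6 and 10.4 CPM in unstimulated ones (log2 1.63 ± 0.23, edgeR adjusted p 0.000315, at most 0.00642 with any library left out). Ndufa5, an accessory subunit of the matrix arm, had 96.0 and 72.2 CPM, against 30.4 and 28.3 CPM (log2 1.52 ± 0.23, edgeR adjusted p 0.000516, at most 0.00806). Sdhaf2, which attaches the flavin cofactor to Sdha, was lower at 22.5 and 20.9 CPM, against 45.7 and 36.9 CPM (log2 -0.93 ± 0.19). Those 3 were the calls that held with every library left out, which is 2.91% of members, where 12.9% of all genes were called and held, and that of Ndufa5 ended with limma on TPM.

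Among complex IV subunits, Cox5a had 264 and 202 CPM in stimulated DMSO libraries, against 134 and 124 CPM in unstimulated ones (log2 0.85 ± 0.20). Cox7a2 (log2 0.71 ± 0.17), Cox7c (0.70 ± 0.18) and Cox5b (0.56 ± 0.18) were also higher, as was the low Cox7a1 at 2.25 and 1.56 CPM, against 0.504 and 0.387 CPM (2.08 ± 0.56). Atp5g3 was higher by 0.72 ± 0.18 and Atp5b by 0.69 ± 0.23. Lower members included the complex I core subunit Ndufs7, with a log2 change of -0.83 ± 0.23, the complex I assembly factor Ndufaf5, with -1.19 ± 0.27, and Sdha, with -0.55 ± 0.18. Each of these calls ended when at least 1 library was left out.

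**Figure D5:**
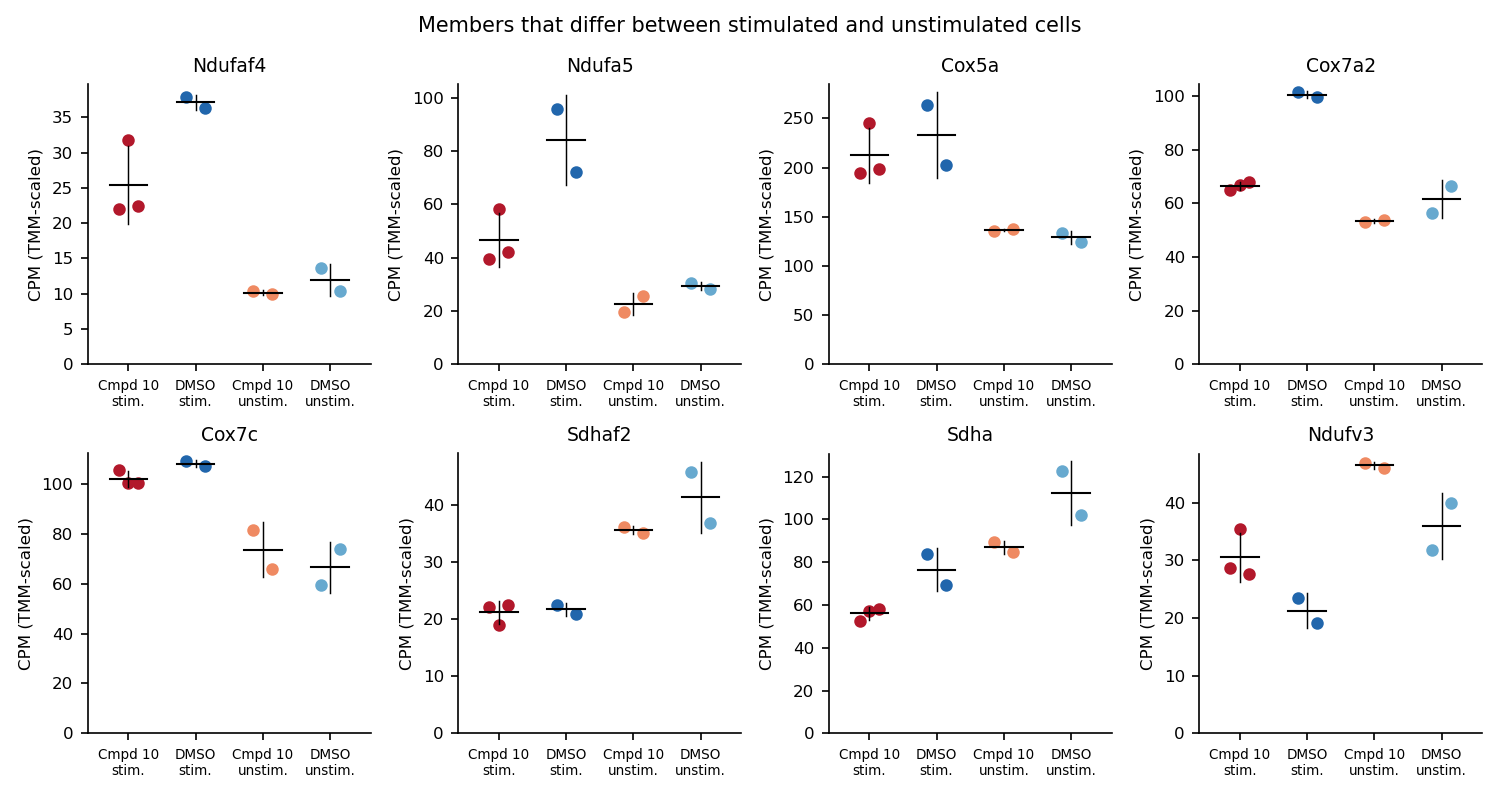
TMM-scaled CPM of each library, by group, for 8 members called in at least 1 comparison of stimulated with unstimulated cells, with mean (bar) and SD (line). Ndufaf4 and Ndufa5 are higher in stimulated libraries with compound 10 and with DMSO, and Sdhaf2 and Sdha are lower.

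Stimulation under compound 10 had 8 nuclear members higher and 10 lower of 90, or 8.89% and 11.1%, where 11% of all genes were higher and 10.8% lower. The median log2 fold change was 0.02 over nuclear members and 0.43 over mitochondrial members, against 0.00 over all genes, and no mitochondrial member passed with edgeR. At an unadjusted p under 0.05 there were 3 mitochondrial members, or 23.1%, where 33.8% of all genes had one. DESeq2 called mt-Nd2, mt-Atp8 and mt-Nd6 higher. Ndufaf4 had 22.0, 31.8 and 22.4 CPM in stimulated compound 10 libraries, against 10.4 and 9.91 CPM in unstimulated ones (log2 1.32 ± 0.22, edgeR adjusted p 0.00112). Ndufv2, a core subunit of the flavoprotein part, had 111, 132 and 113 CPM, against 61.8 and 59.6 CPM (log2 0.97 ± 0.19, edgeR adjusted p 0.00334). Ndufa9 had 15.9, 18.3 and 15.4 CPM, against 28.9 and 28.8 CPM (log2 -0.80 ± 0.18, edgeR adjusted p 0.00633). Those 3 calls held with every library left out, which is 2.91% of members, where 8.01% of all genes were called and held, and those of Ndufaf4 and Ndufv2 ended with limma on TPM.

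Set side by side with stimulation in DMSO, stimulation under compound 10 gave Ndufa5 a change of 1.05 ± 0.22, Cox5a 0.64 ± 0.19, Cox7a1 2.72 ± 0.60, Sdhaf2 -0.75 ± 0.17, Sdha -0.64 ± 0.16 and Ndufv3, of the flavoprotein part, -0.60 ± 0.18. Each of these was called in the same direction in both comparisons of stimulation, and under compound 10 each call ended when at least 1 library was left out. Cox7a2 (0.32 ± 0.15) and Atp5g3 (0.23 ± 0.17), called with DMSO, did not pass under compound 10, and their interaction was -0.39 ± 0.22 and -0.48 ± 0.25 (edgeR adjusted p 0.468 and 0.407). Sdhd at -0.85 ± 0.19, Ndufa8 at -1.05 ± 0.21 and Ndufa11 at -0.64 ± 0.16 were lower, and each of those calls ended without at least 1 library.

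Genes that make, import or regulate the members were read from 8 lists that share no gene with them. Mitochondrial ribosomal proteins, which translate the mitochondrial members, had 27 lower and 2 higher of 78 with compound 10 in stimulated cells, or 34.6% and 2.56% (all genes, 11.4% and 11.7%), with a median of -0.34. Mrps6 had 140, 102 and 112 CPM in stimulated compound 10 libraries, against 291 and 310 CPM with DMSO (log2 -1.35 ± 0.18, edgeR adjusted p 0.000288), and Mrpl32 had 30.9, 26.2 and 26.2 CPM, against 63.0 and 68.5 CPM (log2 -1.24 ± 0.16). In unstimulated cells 6 were lower and 1 higher, or 7.69% and 1.28% (all genes, 2.91% and 4.45%), with Mrpl32 at 17.5 and 14.7 CPM, against 42.9 and 45.4 CPM (log2 -1.45 ± 0.19, edgeR adjusted p 0.00103). With stimulation in DMSO 12 were higher and 12 lower, each 15.4% (all genes, 14.4% and 13.8%), and under compound 10 7 were higher and 13 lower, or 8.97% and 16.7% (all genes, 11% and 10.8%).

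Factors that replicate and transcribe mitochondrial DNA and handle its RNA had 9 lower and 4 higher of 27 with compound 10 in stimulated cells, or 33.3% and 14.8% (all genes, 11.4% and 11.7%). Polrmt, the mitochondrial RNA polymerase, had 3.45, 2.41 and 2.01 CPM, against 9.03 and 8.15 CPM (log2 -1.71 ± 0.25, edgeR adjusted p 0.000567). Tfb2m, its initiation factor, had 11.9, 13.1 and 11.2 CPM, against 28.5 and 29.9 CPM (log2 -1.27 ± 0.18), and was called in the interaction test as well (-1.33 ± 0.27, edgeR adjusted p 0.0389, up to 0.187 with a library left out). In the same libraries the mitochondrial transcripts themselves had a median change of 0.10.

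Protein import had 8 lower and 0 higher of 24 with compound 10 in stimulated cells, or 33.3% lower (all genes, 11.4%). With stimulation in DMSO it had 9 higher and 1 lower, or 37.5% and 4.17% (all genes, 14.4% and 13.8%). With stimulation under compound 10 it had 8 higher and 3 lower, or 33.3% and 12.5% (all genes, 11% and 10.8%). The interaction test called 0 of 24, where 0.421% of all genes were higher and 0.607% lower. Timm10, a chaperone of the intermembrane space, had 16.8, 15.4 and 18.4 CPM in stimulated compound 10 libraries, against 35.6 and 42.7 CPM in stimulated DMSO libraries (log2 -1.21 ± 0.18), and 10.2 and 8.78 CPM in unstimulated DMSO libraries (log2 2.04 ± 0.21 for stimulation in DMSO). With compound 10 in stimulated cells, mitochondrial translation factors had 2 lower and 1 higher of 11, or 18.2% and 9.09% (all genes, 11.4% and 11.7%). Assembly factors outside the symbol rule had 3 lower and 3 higher of 33, each 9.09% and thus near the share over all genes, among them Tmem70, needed for ATP synthase assembly, at -1.04 ± 0.19.

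The tricarboxylic acid cycle with pyruvate dehydrogenase had 5 lower and 4 higher of 18 with compound 10 in stimulated cells, or 27.8% and 22.2% (all genes, 11.4% and 11.7%). Subunits of the GTP and ATP forms of succinyl-CoA ligase stood on opposite sides. Suclg2, of the GTP form, had 24.7, 20.8 and 20.9 CPM, against 6.27 and 6.65 CPM (log2 1.77 ± 0.21). Sucla2, of the ATP form, had 11.8, 20.2 and 13.4 CPM, against 44.4 and 36.6 CPM (log2 -1.42 ± 0.22). Electron carriers and coenzyme Q genes had 1 lower and 3 higher of 18, or 5.56% and 16.7%, led by Coq10a, a coenzyme Q binding protein, at 2.01 ± 0.25. Cycs, which encodes cytochrome c, was higher with stimulation, by 1.74 ± 0.25 in DMSO and 1.35 ± 0.23 under compound 10. Transcriptional regulators had 2 lower and 1 higher of 12 with compound 10 in stimulated cells, or 16.7% and 8.33%, with Gabpa, an ETS factor of nuclear respiratory genes, at 15.1, 9.77 and 13.7 CPM, against 23.8 and 26.1 CPM (log2 -0.96 ± 0.21, edgeR adjusted p 0.00669).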

How the data were processed

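Each of the 9 libraries had a table of 109617 transcripts. Per the labels' protocols, Qiagen reagents gave the RNA and a Clontech SMART-seq kit the sequencing libraries. The submitters' processing notes name cutadapt, kallisto and mm10, without versions. Per the file headers, the authors deposited estimated counts per transcript, which carry no scaling between libraries. The TPM values were deposited in the same tables. Effective lengths served as an offset in 1 alternative.

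Of the transcripts, 108214 matched GENCODE M21 (GRCm38, version suffix ignored); the rest held 0.542% to 0.829% of counts. Estimated counts were summed per gene and rounded. R 4.3.3 was used. edgeR 4.0.16 (filterByExpr, TMM, robust glmQLFit, glmQLFTest, 2-sided) tested all 14011 genes in 1 fit of 9 libraries, with Benjamini-Hochberg adjustment over them and a threshold of 0.05; SE is the log2 fold change over the square root of F. CPM are TMM-scaled. The biological coefficient of variation was 0.244. Counts of replicates differed by more than sampling noise. DESeq2 1.42.0, limma 3.58.1 on log2(TPM + 1), other scalings, filters and sample sets were alternatives, and the fit was tested on simulated data.

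Named are the 13 mitochondrial members, up to 12 nuclear members with the smallest p in each direction and comparison, gene families for 1 subunit position, the assembly factors and up to 4 genes of each pathway list and comparison. The members and lists were chosen with earlier results of these data known. Promoter sequences are from RefSeq (GRCm38.p6). The values of 1 member are not reported here.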

Additional observations from a re-analysis of the deposited data

How the results depend on the processing

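Depth, 2 or 3 libraries a group and 1 dose limit all comparisons. Members called for compound 10 in stimulated cells numbered 27, but 8 with limma on log2(TPM + 1), 15 without the DMSO library of each state richer in ribosomal RNA and 15 to 30 when 1 library was left out, with 15 and 16 without stimulated DMSO replicates 1 and 2. In unstimulated cells they numbered 7, but 11 with DESeq2, 0 with limma, 0 without the libraries richer in ribosomal RNA, and 0 to 9 when 1 library was left out, with 0 without unstimulated compound 10 replicate 1 or 2 or unstimulated DMSO replicate 2, 2 without unstimulated DMSO replicate 1 and 3 without stimulated compound 10 replicate 3. For stimulation in DMSO 19 became 7 with limma, 6 without the libraries richer in ribosomal RNA and 8 to 22 when 1 was left out, with 8 without either unstimulated and 10 without either stimulated DMSO library. For stimulation under compound 10, 18 became 11 with limma and 5 to 19 when 1 was left out, with 5 without either unstimulated compound 10 library and 10 without stimulated compound 10 replicate 3. For the interaction, 0 became 1 with no filter and 1 with DESeq2. Higher and lower calls of stimulation were 2 and 5 with limma in DMSO (12 and 7 with edgeR) and 1 and 10 under compound 10 (8 and 10 with edgeR), where limma moved the median of all genes to -0.17 and -0.21. Upper-quartile scaling moved that of the interaction to 0.12, and leaving out stimulated DMSO replicate 2 that of stimulation in DMSO to -0.11. An effective-length offset gave 1 higher and 5 lower in unstimulated compound 10 cells. The ratio of nuclear to mitochondrial counts in unstimulated compound 10 libraries, -3.23, was -3.32 with protein-coding transcripts only. Of 1638 alternative values of the 71 member calls, 359 no longer passed and 0 changed sign. The cause was not tested in any of these.

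Libraries share replicate numbers, but deviations from the group means of same-numbered libraries correlated between -0.10 and 0.33, so the numbers were not taken as pairs. With a replicate block, 5 higher and 14 lower members were called for compound 10 in stimulated cells, the calls were 4 for compound 10 in unstimulated cells and 11 for stimulation under compound 10, and stayed within 1.5 times elsewhere. With the numbers of unstimulated compound 10 crossed, an alternative chosen after seeing the data, the block gave 3. Adding sequence copies, also chosen after seeing the data, ended 1 call, that of Atp5g2.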
